A study of Mus musculus with 6 samples.

Results

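The genes described here encode 6 proteins of the Fas death pathway: the ligand Fasl, the receptor Fas, the adaptor Fadd, the inhibitor Cflar (c-FLIP), the initiator protease Casp8 and the downstream protease Casp6. They were chosen by symbol, and all 6 were found among the 23366 genes of the count table. The RNA of regulatory T (Treg) cells was sequenced in 3 libraries from liver and 3 from spleen. The cells were sorted as CD4+GFP+ by flow cytometry at 12 days of age from Foxp3GFP knock-in mice. Every animal carried this reporter allele, whose fluorescent protein labels the cells with an active Foxp3 gene, the lineage factor of Treg cells, and no wild-type group was part of the comparison. The labels do not say how many mice gave each library, so each p-value refers to the spread among the libraries alone, part of which may be technical.

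Fas is a death receptor of the TNF receptor superfamily. When the trimeric Fas ligand of an activated T cell or natural killer (NK) cell binds it, Fas gathers the adaptor FADD, which in turn recruits pro-caspase-8; the protease becomes active on dimerizing there and goes on to cleave effector caspases and the BH3-only protein Bid. c-FLIP resembles caspase-8 but lacks protease activity, and it competes for the same complex. Caspase-6 is activated downstream and cleaves nuclear lamins. In the immune system the pathway removes activated and autoreactive lymphocytes, and mice with loss of Fas or Fas ligand develop lymphoproliferation and autoimmunity.

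Fasl and Casp8 were the members that passed the test between the tissues, both toward spleen. The 250 bases before the RefSeq start of each are shown for that reason, with a short motif of a factor family linked to T cell receptor or interferon signals in capitals. They come from the RefSeq promoter table of GRCm38.p6, in which 6 of 6 members were matched. The counts were made on mm9, so these positions are not those of the count table. In the Fasl sequence (chr1:161788496-161788745, minus strand) the capitals mark the core GGAAA of nuclear factor of activated T cells (NFAT), and in the Casp8 sequence (chr1:58802252-58802501, plus strand) they mark the interferon regulatory factor motif AANNGAAA, each on either strand.
Fasl: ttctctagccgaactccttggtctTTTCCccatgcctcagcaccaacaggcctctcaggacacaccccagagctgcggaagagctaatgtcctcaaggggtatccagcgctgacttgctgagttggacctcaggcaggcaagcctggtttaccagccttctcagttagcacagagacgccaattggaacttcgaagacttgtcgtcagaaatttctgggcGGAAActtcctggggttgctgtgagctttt
Casp8: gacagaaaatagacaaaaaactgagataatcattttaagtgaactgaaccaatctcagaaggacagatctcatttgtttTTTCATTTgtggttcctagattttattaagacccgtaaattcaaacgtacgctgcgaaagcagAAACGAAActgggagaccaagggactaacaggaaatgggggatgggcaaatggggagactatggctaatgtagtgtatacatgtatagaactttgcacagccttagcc
The Fasl window held 2 matches to GGAAA. At least 1 match was present in 55.6% and 2 or more in 21.4% of 32851 promoter windows of this length. The Casp8 window held 2 matches to AANNGAAA, of which 1 or more was present in 21.3% and 2 or more in 4.2% of the same windows. Neither window held the Egr motif GCGTGGGCG (0.5% of windows) or a match to the NF-kB motif (7.3% of windows), searched on both strands. The Casp8 window also held 1 match to GGAAA, which is not in capitals, and the Fasl window held 0 to AANNGAAA. Among members that were not called, the Fas window held 1 match to each of these motifs and the Fadd window 1 to GGAAA. A single match to either motif was therefore not limited to the called members. The Cflar and Casp6 windows held 0 matches to both, and no window of a member that was not called held 2 matches to either. Whether the motifs relate to the calls was not tested. A match describes the letters of the window and is not evidence of binding.

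The libraries held between 1199410 and 11408960 counts in genes, and spleen 1 was the shallowest; 1 count corresponded to 0.861 CPM there and to 0.0855 to 0.120 CPM elsewhere. CPM is the count of a gene per 1e6 counts of the TMM-scaled total of its library. Spleen 1 also stood apart in log2 CPM, with Pearson's r across genes of 0.943 and 0.942 to the other spleen libraries, which had 0.985 with each other. Of 11716 genes that passed the filter on low counts, 1895 passed edgeR's quasi-likelihood test at a Benjamini-Hochberg adjusted p under 0.05, 1087 toward liver and 808 toward spleen. All 6 members passed the filter, and 2 of 6 passed the test, against a background of 16.2% of all genes tested. Both were among the genes higher in spleen (background 6.90%), and 0 members were higher in liver (background 9.28%). Without spleen 1 the number of members that passed was 1, Casp8, against 18.5% of all genes tested, and without any other library it was 0, against 10.1% to 13.7% of all genes. The liver and spleen libraries did not overlap for 4 of 6 members, where 32.9% of all genes tested did not overlap.

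Fasl, the ligand, was the least abundant member per transcript length and had the largest fold change of the 6. It had 22, 24 and 14 counts in liver 1, 2 and 3, and 7, 44 and 76 counts in spleen 1, 2 and 3. These correspond to 2.65, 2.20 and 1.30 CPM in liver 1, 2 and 3 and to 6.02, 3.77 and 6.50 CPM in spleen 1, 2 and 3. Every spleen library was above every liver library, although the spleen 1 value rests on 7 counts with an exact Poisson 95% interval from 2.42 to 12.4 CPM, which covers counting error only. Fasl was 2.59-fold higher in spleen, with means of 2.05 ± 0.687 CPM for liver and 5.43 ± 1.46 CPM for spleen (SD of 3 libraries), a log2 fold change (liver minus spleen, ± SE) of -1.38 ± 0.45 and edgeR adjusted p = 0.0433. The 95% interval of that fold change ran from -2.32 to -0.43. Leaving out any 1 library ended the call: the edgeR adjusted p was 0.0579, 0.107 and 0.145 without liver 1, 2 and 3 and 0.0502, 0.0550 and 0.272 without spleen 1, 2 and 3, with log2 fold changes from -1.63 to -1.12. A block that sets liver 1 with spleen 1, 2 with 2 and 3 with 3, the libraries alike in their sex-linked transcripts, also ended it (-1.43, edgeR adjusted p = 0.0545). In libraries of sorted cells, fewer cells with a transcript and less transcript per cell cannot be told apart.

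Marker genes of NK and CD8 T cells, which also express Fasl, were in most cases higher in liver. Of 11 tested marker genes of these cells, 6 were called toward liver and 1 toward spleen, and their summed level ranged over 184 to 229 CPM in liver and 62.9 to 70.6 CPM in spleen. Eomes was the call toward spleen (log2 fold change -3.46 ± 0.47, edgeR adjusted p = 4.41e-05). Klrk1 did not pass (1.64 ± 0.63, edgeR adjusted p = 0.0873). The CD8 genes Cd8a (0.33 ± 0.41, edgeR adjusted p = 0.656) and Cd8b1 (-0.083 ± 0.30, edgeR adjusted p = 0.897) did not pass either, nor did Xcl1 (-0.0078 ± 0.56, edgeR adjusted p = 0.996). No gene of that list of 12 was at 0 in all libraries of a tissue. The genes of the list with the highest CPM were Ccl5, a chemokine, averaging 93.4 CPM in liver against 13.7 in spleen, and Nkg7, a granule protein gene, at 63.1 and 23.8 CPM. Granzyme A and perforin, which form the other killing route of cytotoxic lymphocytes, had log2 fold changes of 3.04 ± 0.34 for Gzma (edgeR adjusted p = 6.69e-06) and 1.64 ± 0.28 for Prf1 (edgeR adjusted p = 0.000439). Both genes are members of this marker list. Treg cells can express them as well, and the part of other cells in the Fasl level was not tested.

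Fas, the receptor, did not pass the test, although its libraries separated by tissue. It was at 32.6, 37.0 and 36.0 CPM in liver 1, 2 and 3 and at 46.5, 43.1 and 42.5 CPM in spleen 1, 2 and 3. The tissues did not overlap, and the libraries of each tissue lay close together. The means were 35.2 ± 2.34 CPM for liver and 44.0 ± 2.15 CPM for spleen (SD of 3 libraries). The log2 fold change of -0.30 ± 0.14 did not pass the test (edgeR adjusted p = 0.165), and its 95% interval ran from -0.60 to -0.0071. With each library left out in turn the log2 fold change stayed between -0.34 and -0.25.

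The ratio of ligand to receptor transcript within a library does not depend on library scaling. Counts of Fasl relative to Fas were 0.0812, 0.0594 and 0.0360 in liver 1, 2 and 3 and 0.130, 0.0875 and 0.153 in spleen 1, 2 and 3. The tissues did not overlap, with liver 1 and spleen 2 close to each other. The log2 ratio averaged -4.16 ± 0.59 in liver against -3.06 ± 0.41 in spleen (SD of 3 libraries), a difference of -1.11 (exact two-sided permutation p = 0.10, the smallest that 3 against 3 libraries can give).

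**Figure D1:**
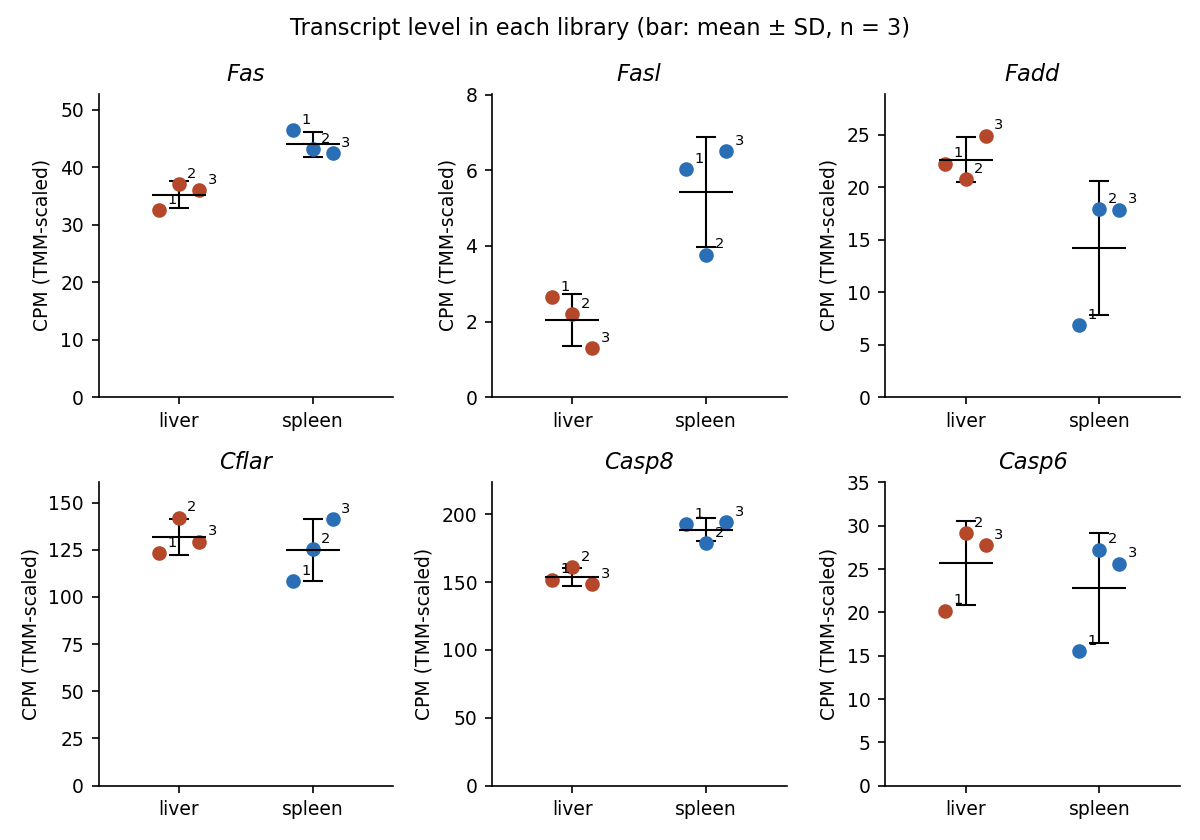
Level of each member in CPM (y axis, from 0) in the liver and spleen libraries, with points numbered by library and bars for the mean ± SD (n = 3). Fas, Fasl and Casp8 are higher in every spleen library than in every liver library, Fadd is lower in every spleen library, and Cflar and Casp6 overlap.

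Fadd, the adaptor that joins receptor and protease, had its 3 highest values in liver. It was at 22.2, 20.7 and 24.9 CPM in liver 1, 2 and 3, and at 6.89, 17.9 and 17.9 CPM in spleen 1, 2 and 3. Spleen 1 was the lowest library by a wide margin, with 8 counts and an exact Poisson 95% interval from 2.97 to 13.6 CPM. The means were 22.6 ± 2.12 CPM for liver and 14.2 ± 6.35 CPM for spleen (SD of 3 libraries), and the log2 fold change of 0.48 ± 0.22 did not pass the test (edgeR adjusted p = 0.163, 95% interval 0.013 to 0.96). Without spleen 1 it was 0.34 (edgeR adjusted p = 0.189).

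Cflar, the inhibitor, did not separate the tissues. Its levels were 123, 142 and 129 CPM in liver 1, 2 and 3 and 108, 125 and 141 CPM in spleen 1, 2 and 3. The ranges overlapped over most of their width. With means of 131 ± 9.55 CPM for liver and 125 ± 16.4 CPM for spleen (SD of 3 libraries) the log2 fold change was 0.044 ± 0.11 (edgeR adjusted p = 0.836), and its 95% interval ran from -0.18 to 0.27. Its sign changed with upper-quartile scaling and without liver 2 or spleen 1.

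Casp8, the initiator protease, was the most abundant member per transcript length and was higher in spleen by a small amount. It was at 152, 161 and 148 CPM in liver 1, 2 and 3, and at 193, 179 and 194 CPM in spleen 1, 2 and 3. Between 224 and 2274 counts lay behind each value, the libraries of a tissue differed by a coefficient of variation of 4.16% in liver and 4.56% in spleen, and the tissues did not overlap. Casp8 was 1.22-fold higher in spleen, with means of 154 ± 6.39 CPM for liver and 189 ± 8.60 CPM for spleen (SD of 3 libraries) and a log2 fold change of -0.29 ± 0.09 (edgeR adjusted p = 0.0362, 95% interval -0.48 to -0.099). The edgeR adjusted p stayed under the threshold without spleen 1, at 0.0465. It was 0.123, 0.0791 and 0.0616 without liver 1, 2 and 3 and 0.0826 and 0.171 without spleen 2 and 3, with log2 fold changes between -0.33 and -0.26.

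Cflar relative to Casp8 sets the inhibitor against the protease it resembles, again free of library scaling. Their annotated exons share 0 bases in GENCODE M21, while the annotation used for the counts is not given. The ratio of their counts was 0.812, 0.883 and 0.871 in liver 1, 2 and 3 and 0.562, 0.701 and 0.726 in spleen 1, 2 and 3. Every liver library was above every spleen library, and spleen 1 was the lowest. The log2 ratio averaged -0.23 ± 0.07 in liver against -0.60 ± 0.20 in spleen (SD of 3 libraries), a difference of 0.37 (exact two-sided permutation p = 0.10, the smallest possible here). Without spleen 1 the difference was 0.26.

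**Figure D2:**
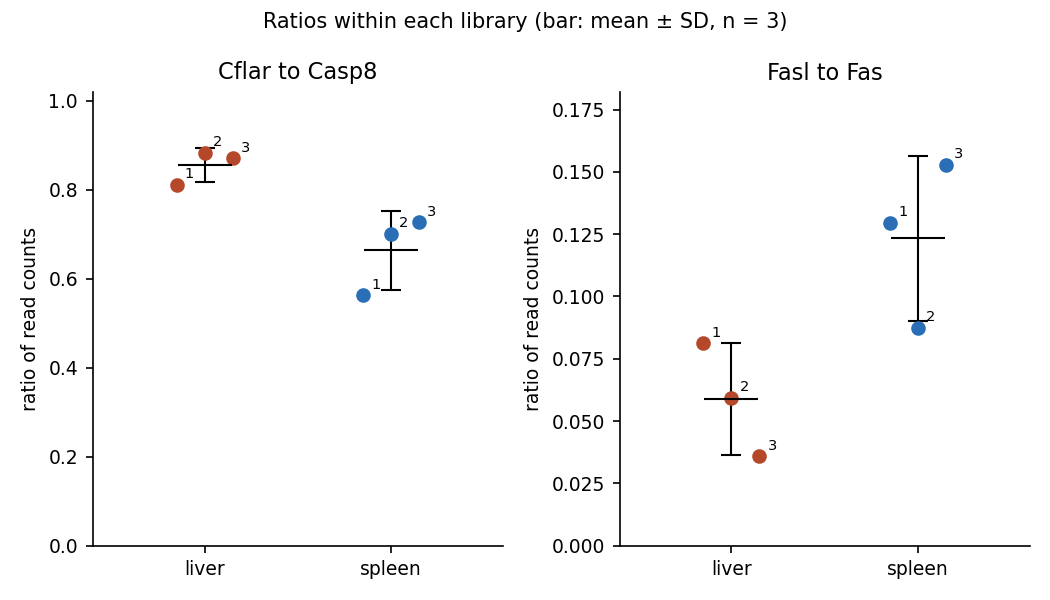
Ratio of read counts within each library (y axis, from 0) for Cflar to Casp8 (left) and Fasl to Fas (right), with points numbered by library and bars for the mean ± SD (n = 3). The Cflar to Casp8 ratio is above 0.81 in the liver libraries and below 0.73 in the spleen libraries, and the Fasl to Fas ratio is lower in each liver library than in each spleen library.

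Casp6, a protease activated downstream, overlapped between the tissues. It was at 20.2, 29.2 and 27.8 CPM in liver 1, 2 and 3 and at 15.5, 27.2 and 25.6 CPM in spleen 1, 2 and 3. Liver 1 and spleen 1 were the low libraries of their tissues. The means were 25.7 ± 4.83 CPM for liver and 22.8 ± 6.37 CPM for spleen (SD of 3 libraries), with a log2 fold change of 0.072 ± 0.20 (edgeR adjusted p = 0.860, 95% interval -0.35 to 0.49). The sign changed without liver 2 or spleen 1 and in limma-voom with sample weights.

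**Figure D3:**
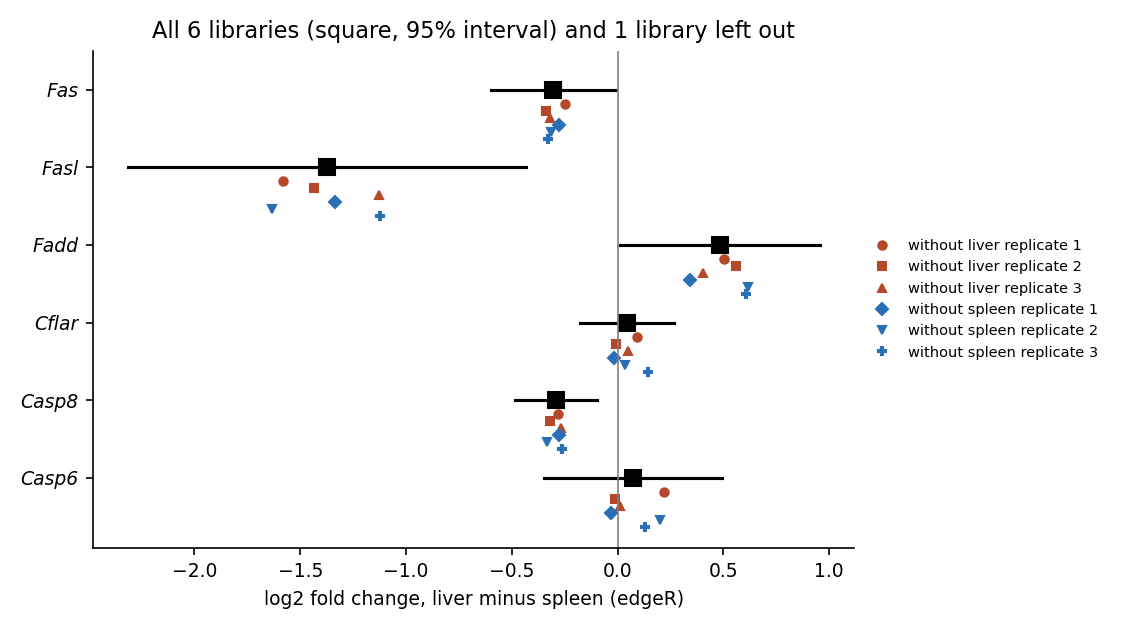
Log2 fold change, liver minus spleen (x axis), of each member with all 6 libraries (square, with its 95% interval) and with 1 library left out (small symbols, red for a liver and blue for a spleen library). Fasl lies between -1.63 and -1.12 whichever library is left out and Casp8 between -0.33 and -0.26, while the small symbols of Cflar and Casp6 fall on both sides of 0.

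Levels can be compared between genes only per transcript length, here the longest coding transcript of GENCODE M21. On that scale the order was the same in both tissues: Casp8, Fas, Cflar, Casp6, Fadd and Fasl. In liver the mean levels were 59.4, 23.8, 20.0, 17.7, 5.80 and 1.06 CPM per kilobase, and in spleen 73.0, 29.7, 19.0, 15.7, 3.64 and 2.80 CPM per kilobase. The library ranges of Cflar and Casp6 overlapped in both tissues, and those of Fadd and Fasl overlapped in spleen. With the summed length of all annotated exons in place of the coding transcript, Cflar fell to 10.4 and Casp6 to 4.61 CPM per kilobase in liver, which put Casp6 below Fadd there at 5.80. The transcript form that these cells make was not analysed here.

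The genes whose log2 CPM followed the called members most closely over the 6 libraries, among 8756 tested genes with a mean of at least 10 CPM, were named by the highest Pearson's r, given as a description. For Fasl these were Scaf4 (r = 0.992), Slc39a10 (r = 0.990) and Scd1 (r = 0.989), a fatty acid desaturase gene. For Casp8 they were Akap8 (r = 0.999), Tcof1 (r = 0.992) and Tlr1 (r = 0.991), which encodes a Toll-like receptor. Of these, Scd1 (log2 fold change -1.73 ± 0.26, edgeR adjusted p = 0.000152), Tcof1 (-0.32 ± 0.09, edgeR adjusted p = 0.0180) and Tlr1 (-0.50 ± 0.09, edgeR adjusted p = 0.000892) were themselves higher in spleen. Genes picked for a high r with members higher in spleen will tend to share that direction, so it is not a separate result.

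Around the members, 5 lists of the extrinsic death pathway held 77 genes, the members included, of which 70 were tested. Of these, 11 were called toward liver and 6 toward spleen, 24.3% of those tested against 16.2% of all genes, and the median log2 fold change was 0.072 against -0.0051 over all genes. Without the members the counts were 11 and 4 of 64. Of the 6 calls toward spleen, 4 came from the list of death receptors and ligands, which held 12 of the 70 tested genes. Of the 11 calls toward liver, 0 came from that list, and without spleen 3 it held 1 call toward liver. Fasl was among the 4, and its call was lost with any 1 library left out. Without the shallow library spleen 1, 9 of 70 were called toward liver and 6 toward spleen, against 18.5% of all genes tested in either direction. With any other library left out the counts were 8 to 11 and 3 to 5, against 10.1% to 13.7% of all genes.

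Death receptors and their ligands passed toward spleen in 4 of 12 cases (6.90% of all genes tested) and toward liver in 0 (9.28%). The other 8 did not pass, and the median log2 fold change of the list was -0.38. Lta, which encodes lymphotoxin alpha, was at 16.0, 12.0 and 11.2 CPM in liver 1, 2 and 3 and at 42.2, 57.2 and 53.4 CPM in spleen 1, 2 and 3. It was higher in spleen without overlap (log2 fold change -2.01 ± 0.18, edgeR adjusted p = 5.26e-07). Tnf, the founding ligand of the family, was higher in spleen as well, at 26.6 ± 4.42 against 13.4 ± 0.981 CPM (SD of 3 libraries; log2 fold change -1.04 ± 0.19, edgeR adjusted p = 0.000851). Tnfrsf25, a death-domain receptor of T cells also called DR3, was at 138 ± 25.5 CPM in spleen against 86.0 ± 14.0 CPM in liver (-0.72 ± 0.13, edgeR adjusted p = 0.000851). Lta, Tnf and Tnfrsf25 passed with each library left out, unlike Fasl. Tnfrsf21 (DR6) did not pass (-1.34 ± 0.45, edgeR adjusted p = 0.0518). The receptor for TRAIL, Tnfrsf10b, named after its value was seen, had the opposite sign at 0.83 ± 0.29 (edgeR adjusted p = 0.0617).

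Adaptors, kinases and inhibitors of the death complexes passed toward liver in 4 of 26 cases (9.28% of all genes tested) and toward spleen in 1 (6.90%). The other 21 did not pass, and the median of the list was 0.13. The call toward spleen, Faim3, encodes the IgM receptor that was first described as a Fas inhibitor, and it was at 20.1 ± 3.29 CPM in spleen and 10.6 ± 1.30 CPM in liver (-0.94 ± 0.22, edgeR adjusted p = 0.00567; 0.0812 without spleen 3). Ripk3, the kinase of necroptosis, was at 122 ± 8.09 CPM in liver against 80.7 ± 3.92 in spleen (0.61 ± 0.10, edgeR adjusted p = 0.000399). Its partner Ripk1 was higher in liver by 0.52 ± 0.15 (edgeR adjusted p = 0.0261; 0.0931 was the highest value with a library left out, and the call was lost without liver 1 or liver 2). The ubiquitin-editing genes Tnfaip3, which encodes A20, (0.79 ± 0.14) and Cyld (0.31 ± 0.10) were higher in liver as well, and Cyld passed in 2 of 6 fits with a library left out. Mlkl, the effector of necroptosis named after its value was seen, was at 2.01 CPM in liver against 1.52 in spleen on average and did not pass.

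Of 6 tested caspases in the list as described here, Casp8 was called toward spleen, as were 6.90% of all genes tested. The other 5 did not pass, and the median of the list was 0.051. Casp2, a caspase linked to DNA damage and mitosis, was at 92.5, 85.6 and 80.5 CPM in liver 1, 2 and 3 and at 80.0, 73.8 and 70.4 CPM in spleen 1, 2 and 3. The tissues lay close together without overlap, and the log2 fold change of 0.22 ± 0.11 did not pass (edgeR adjusted p = 0.204). Casp9, the initiator of the mitochondrial branch, was at 23.9, 25.9 and 27.2 CPM in liver 1, 2 and 3 and at 12.0, 28.0 and 27.9 CPM in spleen 1, 2 and 3. Spleen 1 was the low library, as for Fadd and Casp6, and the fold change did not pass (0.031 ± 0.21, edgeR adjusted p = 0.945). The inflammatory caspase genes Casp1 and Casp4 were low and were highest in spleen 1. Casp1 stood at 14.6 CPM in spleen 1, while the remaining libraries ranged from 0.857 to 3.89 CPM. Casp4 stood at 8.61 CPM in spleen 1, on 10 counts, and at 1.89 to 4.91 CPM elsewhere (0.46 ± 0.53, edgeR adjusted p = 0.622). Casp12 and Casp14 had no counts in any library.

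Genes of the mitochondrial branch and caspase inhibitors passed toward liver in 3 of 12 cases (9.28% of all genes tested) and toward spleen in 0 (6.90%). The other 9 did not pass, and the median of the list was 0.16. Apaf1, the scaffold on which caspase-9 is activated, was at 94.0 ± 3.61 CPM in liver against 60.2 ± 0.802 in spleen (0.65 ± 0.11, edgeR adjusted p = 0.000402). Bak1, a pore-forming protein of the outer mitochondrial membrane, was higher by 0.43 ± 0.13 (edgeR adjusted p = 0.0329) and passed in 2 of 6 fits with a library left out. Bid, the protein that links caspase-8 to mitochondria, was at 52.6 ± 5.72 CPM in liver against 37.2 ± 7.17 in spleen and did not pass (0.45 ± 0.15, edgeR adjusted p = 0.0544). Birc5, which encodes survivin, was higher in liver by 1.62 ± 0.16 (edgeR adjusted p = 1.72e-06). Survivin also serves in mitosis, and 7 of 8 proliferation genes, Birc5 among them, were higher in liver, with summed levels of 1915 to 2032 CPM in liver against 854 to 1063 in spleen; the genes with the highest CPM were Mki67 (888 against 345 CPM) and Top2a (421 against 169 CPM). The part of proliferation in these levels was not tested.

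Caspase substrates passed toward liver in 4 of 14 cases (9.28% of all genes tested) and toward spleen in 0 (6.90%). The other 10 did not pass, and the median of the list was -0.015. The nuclear lamins, which caspase-6 can cleave, were Lmna at 147 ± 7.82 against 49.5 ± 10.2 CPM (1.65 ± 0.12, edgeR adjusted p = 6.65e-08) and Lmnb1 at 344 ± 17.9 against 140 ± 12.4 CPM (1.31 ± 0.10, edgeR adjusted p = 6.36e-08). Vim, which encodes the intermediate filament vimentin, was higher by 0.97 ± 0.11 and the channel gene Panx1 by 0.41 ± 0.12 (edgeR adjusted p = 8.46e-06 and 0.0258). Panx1 passed in 3 of 6 fits with a library left out, and the other 3 passed in all. The products of these genes have other roles besides being cleaved by caspases, and transcript levels do not measure cleavage.

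**Figure D4:**
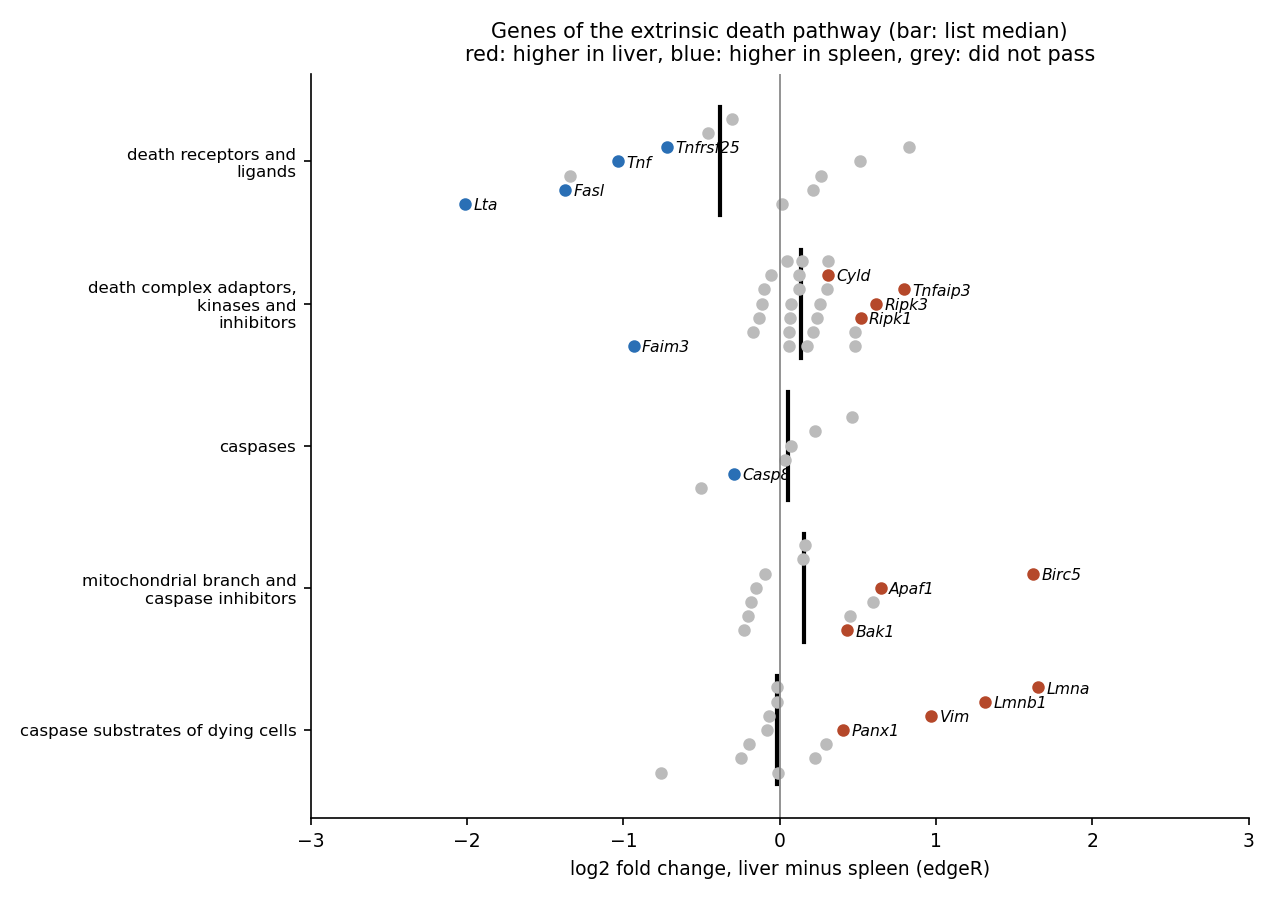
Log2 fold change, liver minus spleen (x axis), of the 70 tested genes in 5 lists of the extrinsic death pathway, with called genes named and coloured (red for higher in liver, blue for higher in spleen) and a bar at each list's median. Calls toward spleen are Lta, Fasl, Tnf, Tnfrsf25, Faim3 and Casp8, and the lists of the mitochondrial branch and of caspase substrates hold calls toward liver only.

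The sorted cells carried the transcripts of their label: Foxp3 was at 1266 CPM in liver against 1160 in spleen on average and did not pass (edgeR adjusted p = 0.384), and Ikzf2 was at 822 and 642 CPM (edgeR adjusted p = 0.0241). The 6 Treg markers, of which 2 were called toward liver and 1 toward spleen, summed to 4059 to 4439 CPM in liver and 3630 to 4070 CPM in spleen. Markers of other cells that express Fas and caspase-8 were present and in most cases higher in spleen. Of 8 B cell markers 5 were higher in spleen, with sums of 124 to 151 CPM in liver and 204 to 294 CPM in spleen, and the genes with the highest CPM were Cd79a (39.0 against 61.1 CPM) and Cd79b, which did not pass (43.1 against 56.7 CPM; edgeR adjusted p = 0.135). Of 9 macrophage markers tested 8 were higher in spleen (76.4 to 86.6 against 131 to 204 CPM), and of Lyz2 and Cd68, the genes with the highest CPM, Cd68 did not pass (edgeR adjusted p = 0.271), with Vsig4 at 0 in both tissues, Spic at 0 in liver and Clec4f at 0 in spleen.

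Of 11 granulocyte markers 9 were higher in spleen and 1 in liver (296 to 333 against 506 to 847 CPM), led by Ngp and Ltf. All 8 tested erythroid markers were higher in spleen (26.2 to 33.9 against 232 to 321 CPM), led by Beta-s and Gata1; Hba-a1, Hba-a2 and Hbb-b1 were at 0 in both tissues and Rhag at 0 in liver. Hepatocyte markers, of which 2 of 4 tested were higher in liver and 1 in spleen, summed to 16.0 to 27.1 CPM in liver and 18.2 to 25.0 CPM in spleen, led by Trf and Alb; Alb, Ttr, Serpina1a, Fgb, Ahsg and Tat were at 0 in spleen. Of 5 tested markers of liver endothelial and stellate cells 1 was higher in spleen (194 to 235 against 247 to 271 CPM), led by Pecam1, which lymphocytes also express, and Stab2, with Lyve1, Dcn and Lrat at 0 in both tissues. The part of these cells in the levels of Fas, Fasl and Casp8 was not tested. Removing the marker genes before scaling left the log2 fold changes at -0.30, -1.38 and -0.29. That step takes out the rows of the markers only. Any reads of these cells in the counts of Fas, Fasl and Casp8 remain, so it cannot test their part.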

How the data were processed

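The submitters deposited a table of unnormalized counts of reads, with 1 row for each gene symbol and 1 column for each library. Per the submitters' processing notes, HISAT2 2.1 and HTSeq 0.11 were run with mm9; which annotation, strand option and filters were used is not given in the sources used here. The 5 HTSeq summary rows (25.5% to 29.0% of a library's counts) were left out. Counts were fitted in R 4.3.3 with edgeR 4.0.16 (filterByExpr, TMM, quasi-likelihood F test, liver minus spleen, all 6 libraries), with Benjamini-Hochberg adjustment over the 11716 genes tested and a threshold of 0.05; the methods were tested on simulated counts. SE and 95% intervals follow from the F statistic. Libraries are numbered in accession order within a tissue. Ratios of counts were compared by exact permutation tests.

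The members and gene lists were chosen with earlier results of these data known. Named genes are the members, the 4 other genes with the smallest p and any other called gene of each pathway list, 3 genes most like each called member, and the 2 most abundant genes and those at 0 of each marker list. Genes named outside this rule include Gzma, Prf1, Eomes, Klrk1, Cd8a, Cd8b1, Xcl1, Tnfsf10, Tnfrsf10b and Mlkl. Of the listed symbols, Spna2 was matched as Sptan1 through the RefSeq gene table and Ly6g was not matched; 2 genes of the caspase list are not reported here and enter no count of a pathway list. Alternatives were DESeq2 1.42.0 (its size factors in edgeR, and its Wald test), upper-quartile scaling, limma-voom (limma 3.58.1) with sample weights, other filters, a robust fit, marker genes removed, thinning to 1199410 counts, a block on sex-linked transcripts and each library left out. Lengths come from GENCODE M21.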

Additional observations from a re-analysis of the deposited data

How the results depend on the processing

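Fas and Fadd kept their sign and stayed on the same side of the threshold in 16 of 16 alternatives. Fasl kept its sign in 14 of 14 and its call in 7: the call was lost with a block on sex-linked transcripts (log2 fold change -1.43, edgeR adjusted p = 0.0545) and without each library (-1.63 to -1.12). It was too low to be tested under the filter of 5 CPM in 3 libraries or after thinning, where the Fasl to Fas ratio had no value because liver 2 was left with 0 counts of Fasl. Casp8 kept its sign in 16 of 16 and its call in 11 (-0.33 to -0.26 with a library left out). The other sign changes were of Cflar, at -0.0015 with upper-quartile scaling, -0.021 after thinning, -0.0069 without liver 2 and -0.017 without spleen 1, and of Casp6, at -0.0061 in limma-voom, -0.014 without liver 2 and -0.033 without spleen 1. With a library left out, Fas ranged from -0.34 to -0.25, Fadd from 0.34 to 0.62, Cflar from -0.017 to 0.15 and Casp6 from -0.033 to 0.22, the log2 ratio of Cflar to Casp8 from 0.26 to 0.44 and that of Fasl to Fas from -1.38 to -0.79. Each of these fits has fewer libraries.

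Over all genes, limma-voom called 1243 higher in spleen, and after thinning 620 were called toward liver and 426 toward spleen; the ranges with a library left out were 722 to 1245 and 486 to 989. Among receptors and ligands, 1 gene was higher in liver in limma-voom, with no filter and after thinning (0 to 1 with a library left out), 2 were higher in spleen after thinning (3 to 4 with a library left out), and the median was -0.13 with no filter (-0.46 to -0.31 with a library left out). Among adaptors, 2 were called toward liver and 0 toward spleen after thinning (2 to 5 and 0 to 1 with a library left out), and the median was 0.088 with upper-quartile scaling and 0.18 after thinning (0.12 to 0.17 with a library left out). Of the caspases 0 to 1 was higher in spleen with a library left out, the caspase median ranged from -0.0055 to 0.13 with a library left out, and that of caspase substrates was 0.26 after thinning. Thinning removes reads; otherwise the cause was not tested. Counting error is part of the spread for Fasl, on 7 to 76 counts per library, and for Fadd in spleen 1, on 8 counts. How much of the spread it makes up was not tested.

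The labels give no number that pairs libraries across the tissues. In both tissues library 1 held Xist alone, library 2 Ddx3y alone and library 3 both over 10 CPM, so the block on sex-linked transcripts pairs the libraries of the same number in accession order; whether they share animals is not given. Of the members' calls, this pairing changed that of Fasl alone.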

Other observations

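In the complex at the receptor, Casp8 was higher in spleen, Fadd had its highest levels in liver without passing the test, and Cflar overlapped. The protease gene downstream, Casp6, did not pass (edgeR adjusted p = 0.860). The differences between these fold changes were not tested beyond the Cflar to Casp8 ratio.

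Fasl had a lower level in liver while Gzma and Prf1, genes of the granule route of killing, were higher there (log2 fold changes of -1.38, 3.04 and 1.64). The Fasl call was lost with any 1 library left out. Gzma and Prf1 are also in the marker list of NK and CD8 T cells, and the part of such cells was not tested. Of the other tested ligands in the list of death receptors and ligands, Lta and Tnf had the sign of Fasl, at -2.01 and -1.04. Tnfsf10, which encodes TRAIL, had the opposite sign at 0.22 and did not pass (edgeR adjusted p = 0.455). TNF family ligands outside that list are not described here.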
